A study of Mus musculus with 847 samples.

Results

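The genes described here are Mbp, Mag, Mog, Mobp, Cnp, Cldn11, Opalin, Ermn and Aspa, 9 of the 21076 genes in a count table of mouse brain regions. They were taken by name, as genes of the myelin sheath and of the cells that make it, and no measured value entered the rule. The choice was made with earlier results of these data known. On GRCm38, Ermn lies on chromosome 2, Cldn11 on 3, Mag on 7, Mobp on 9, Cnp and Aspa on 11, Mog on 17 and Opalin on 19. The study sequenced mRNA from 15 dissected brain regions of 59 C57BL/6JN mice, which gave 847 libraries of 1 region of 1 mouse each. Females were 3, 12, 15, 18 and 21 months old, with 5 mice at each age. Males had 5 mice at 3, 12, 15, 18 and 26 months, 6 at 21 months and 3 at 28 months, so the ages of 26 and 28 months hold males only. All mice share the strain, and the labels name no other allele and no treatment, so the labelled groups differ by region, age and sex. Mouse numbers follow age: 12 and 26 months are mice 1 to 15, 28 months are mice 57 to 59, and 3, 15, 18 and 21 months are mice 16 to 56, a subset that is also fitted alone and that drops the other ages. A region has 51 to 59 libraries, and a region at 1 age has 2 to 11. All 9 genes had at least 2 reads in every library and passed the filter on low counts in all 15 regions.

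Myelin is the stack of membrane that oligodendrocytes wrap around axons, and it gives white matter its name. Mbp encodes myelin basic protein, which holds the cytoplasmic faces of the membrane together, and Mobp encodes another small basic protein of compact myelin. Mag and Mog encode surface proteins of the innermost and the outermost myelin membrane, and Cldn11 encodes the claudin of the tight junctions between the wraps. Cnp encodes an enzyme that keeps cytoplasmic channels in the sheath open. Opalin encodes a membrane glycoprotein and Ermn encodes a cytoskeletal protein, both found in oligodendrocytes that have matured. Aspa encodes aspartoacylase, which cleaves N-acetylaspartate, a metabolite made by neurons, so that its acetate can be used for lipid synthesis. The transcription factors SOX10 and MYRF are known to drive the myelin genes in oligodendrocytes.

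The sequences just before the transcription start are shown for 7 of the genes, because the genes share most of their pattern across regions, while Aspa and Cldn11 moved apart with age. They come from RefSeq on GRCm38.p6, and 8 of the 9 genes have an entry in the table used, all but Mbp. Mag has 3 starts in that table, and the first is shown. Each line gives the 250 bases before the start, 5′ to 3′ on the gene's strand. Capitals mark the letters of a SOX core, ACAAAG or ACAATG, or of a MYRF motif, CTGGCAC or CTGGTAC, searched on both strands; no 2 of the matches marked overlap.
Mag, chr7:30914864-30915113, minus strand: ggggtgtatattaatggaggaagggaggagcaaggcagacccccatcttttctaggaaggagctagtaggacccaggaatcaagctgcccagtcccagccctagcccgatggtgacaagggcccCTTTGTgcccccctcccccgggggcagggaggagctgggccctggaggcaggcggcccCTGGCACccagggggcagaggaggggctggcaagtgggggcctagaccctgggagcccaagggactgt
Mog, chr17:37023399-37023648, minus strand: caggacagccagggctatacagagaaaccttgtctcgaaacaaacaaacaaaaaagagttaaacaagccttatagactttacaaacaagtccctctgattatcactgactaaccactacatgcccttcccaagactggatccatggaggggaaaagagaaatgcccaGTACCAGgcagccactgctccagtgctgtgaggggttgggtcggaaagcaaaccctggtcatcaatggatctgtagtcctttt
Cnp, chr11:100574689-100574938, plus strand: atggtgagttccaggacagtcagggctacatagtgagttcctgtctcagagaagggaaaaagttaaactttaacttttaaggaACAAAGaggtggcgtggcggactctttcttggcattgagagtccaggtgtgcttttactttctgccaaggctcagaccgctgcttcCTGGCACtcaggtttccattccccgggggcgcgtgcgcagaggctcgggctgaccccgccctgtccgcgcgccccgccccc
Opalin, chr19:41077114-41077363, minus strand: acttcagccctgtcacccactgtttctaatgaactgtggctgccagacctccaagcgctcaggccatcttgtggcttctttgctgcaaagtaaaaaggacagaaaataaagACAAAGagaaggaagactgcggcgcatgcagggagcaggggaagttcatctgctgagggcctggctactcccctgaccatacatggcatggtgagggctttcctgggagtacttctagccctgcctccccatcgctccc
Mobp, chr9:120149492-120149741, plus strand: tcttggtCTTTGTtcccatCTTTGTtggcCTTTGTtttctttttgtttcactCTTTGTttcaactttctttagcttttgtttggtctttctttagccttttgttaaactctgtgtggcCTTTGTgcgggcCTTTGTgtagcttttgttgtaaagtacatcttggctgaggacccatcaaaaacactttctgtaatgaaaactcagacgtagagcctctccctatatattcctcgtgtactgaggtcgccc
Aspa, chr11:73324638-73324887, minus strand: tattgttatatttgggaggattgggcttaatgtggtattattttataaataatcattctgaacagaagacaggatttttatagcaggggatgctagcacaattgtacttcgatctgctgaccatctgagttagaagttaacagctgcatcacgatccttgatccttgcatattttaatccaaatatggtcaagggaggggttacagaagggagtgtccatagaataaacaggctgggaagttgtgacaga
Cldn11, chr3:31149670-31149919, plus strand: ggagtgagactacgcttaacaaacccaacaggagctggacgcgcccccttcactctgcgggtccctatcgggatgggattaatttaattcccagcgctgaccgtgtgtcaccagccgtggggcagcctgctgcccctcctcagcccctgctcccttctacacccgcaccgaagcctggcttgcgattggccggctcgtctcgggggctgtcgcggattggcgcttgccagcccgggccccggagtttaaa
With the 50 bases after the start included, and a gene counted if any of its starts had a match, MYRF letters were found for 4 of the 8 genes, Mag, Mog, Cnp and Opalin, against 7.10% of the 32851 mouse promoters searched. SOX letters were found for 5 of the 8, Mag, Mobp, Cnp, Opalin and Ermn, against 28.6% of promoters. These shares are per promoter and the counts are per gene; the third start of Mag held neither set of letters. Mobp held 6 copies of CTTTGT, the reverse complement of ACAAAG. The MYRF letters of Opalin lie 36 bases after the start and so outside the line shown. Aspa and Cldn11 held neither set of letters in these windows. In the GENCODE M21 annotation, Aspa extends on its 5′ side to position 73329596 of chromosome 11. The Aspa start used here lies inside that gene, and the bases before the annotated 5′ end were not searched. A match is a description of the sequence only.

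Libraries held 481444 to 26756735 reads, with a median of 6716032, and levels are given as CPM, a gene's reads per 1000000 reads of its library. The tests also used TMM scaling factors, which the CPM do not hold, so a tested difference need not equal the difference in CPM. In bulk tissue, fewer cells of a type and less RNA per cell cannot be told apart, and this holds for all levels and differences that follow. The label of a region was set against its profile: 17 of the 847 libraries correlated best with the mean profile of another region or carried genes of both sexes, 9 of them from Hippocampus (posterior). Among them is the Entorhinal cortex library of mouse 52, whose profile was nearest to Pons. The libraries labelled Choroid Plexus had a median of 6972 CPM summed over 8 neuron markers and 6045 CPM over 7 choroid plexus markers, so neuron markers were as high there as the markers of the label. Cnp shares 154 exon bases with Dnajc7 on the opposite strand, Ermn shares 237 with Galnt5, and Mobp shares 79 with Gm38642 on the same strand. The libraries do not mark strand, so reads from those bases cannot be assigned to 1 gene.

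The 9 genes took a median of 1.88% of all reads in Pons, 1.77% in Medulla and 1.62% in Corpus callosum, the main white matter tract of the set. They took 0.165% in Visual Cortex and 0.113% in Entorhinal cortex. Ordered by the mean log2 CPM of the 9 genes, Corpus callosum (9.12), Pons (9.11) and Medulla (9.03) stood first. Choroid Plexus, Caudate putamen, Subventricular zone and Thalamus followed at 8.41 to 8.07, then Cerebellum, Hypothalamus and Hippocampus (anterior) at 7.53 to 7.42. Hippocampus (posterior), Motor cortex, Olfactory bulb, Visual Cortex and Entorhinal cortex closed the order at 6.98 to 5.55.

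**Figure D1:**
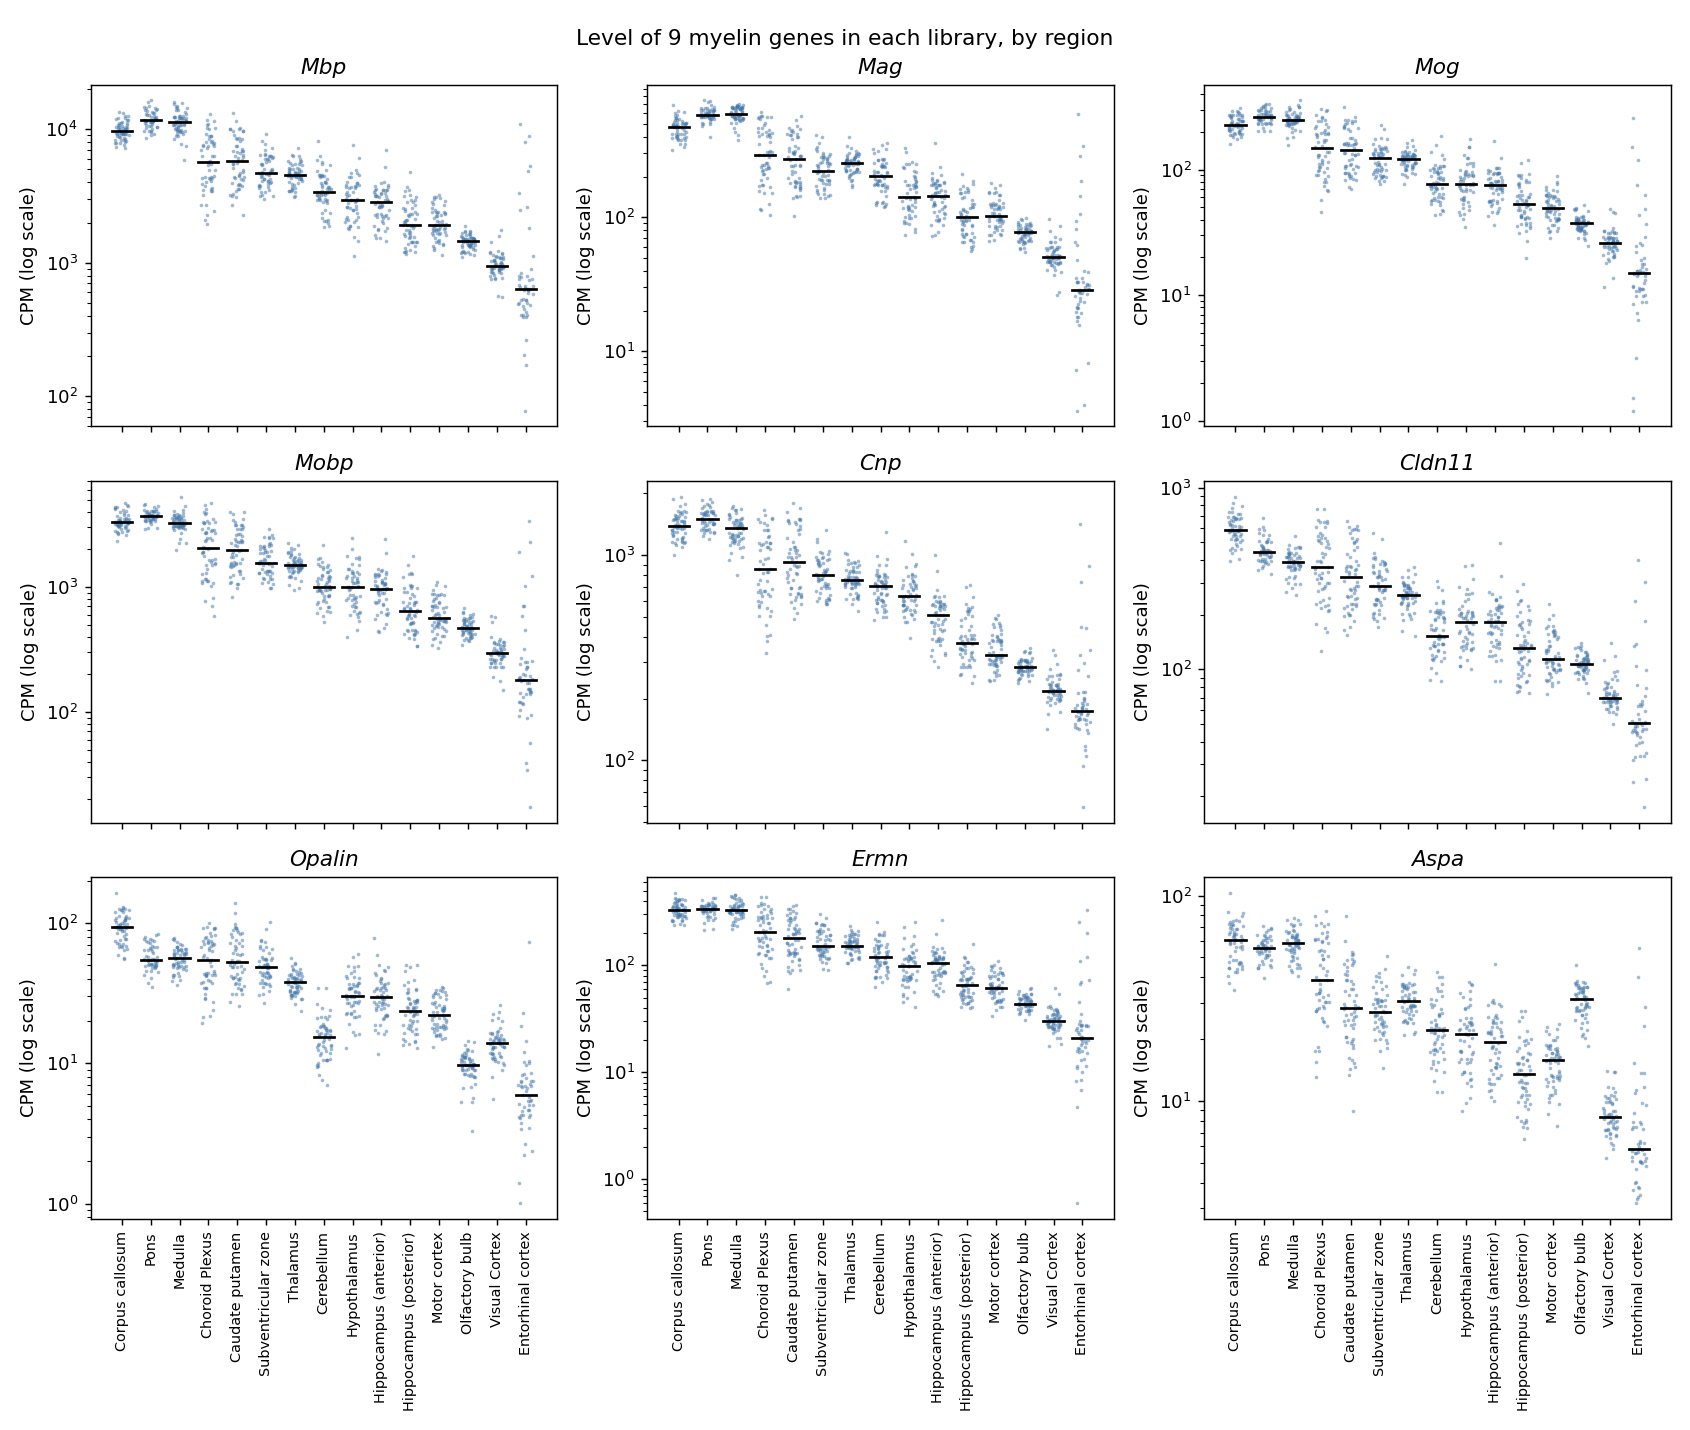
Level of each gene in each of the 847 libraries, by region, in CPM on a log axis; points are libraries, black bars are medians, and regions run from the highest to the lowest mean of the 9 genes. Corpus callosum, Pons and Medulla are the 3 highest regions for 9 of 9 genes by median, though for Opalin Medulla (56.3), Pons (54.7) and Choroid Plexus (54.3 CPM) are close. Entorhinal cortex, the lowest for all 9, also has the widest scatter, from 77.6 to 10998 CPM of Mbp. The highest value there is from the library of mouse 52, whose profile was nearest to Pons.

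Mbp, the most abundant of the 9 on a per-length scale, ran from 8565 to 16425 CPM in Pons, with a median of 11651. In Medulla it ran from 5862 to 16007 with a median of 11303, and in Corpus callosum from 7212 to 13397 with a median of 9688. In Visual Cortex it ran from 552 to 1758, with a median of 947. No Visual Cortex library reached the lowest library of these 3 regions. Between the highest and the lowest region the medians differed 18.4-fold for Mbp, 20.6-fold for Mag, 20.7-fold for Mobp and 17.6-fold for Mog. The span was 8.60-fold for Cnp, 10.4-fold for Aspa and 11.6-fold for Cldn11, the narrowest of the 9. Pons had the highest median for Mbp, Mog, Mobp, Cnp and Ermn, and Medulla for Mag. Corpus callosum had the highest median for Cldn11, at 588 CPM, Opalin, at 94.0 CPM, and Aspa, at 60.5 CPM.

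Divided by the length of each gene's exons, the levels in Corpus callosum fell into a wide order. Mbp had a median of 1144 CPM per kb, Mobp 486, Cnp 383 and Cldn11 314. The surface proteins Mog and Mag stood at 133 and 117 CPM per kb, and Ermn at 90.5. Opalin, at 31.9, and Aspa, at 10.2, were the lowest. The order was the same in Pons, where Mbp stood at 1376 and Aspa at 9.37 CPM per kb.

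Each region was then tested against the next in this order, fitted for all genes, which gave 126 tests of 1 of the 9 genes: 64 were higher in the region placed higher, 14 were lower and 48 did not pass. The order was set by the mean of these same genes in the same libraries, so the split between higher and lower is a description. Over all genes 81.9% of such tests passed. With each mouse as a replicate block, 83 passed in place of 78. The block ended 3 calls: Cldn11 between Cerebellum and Hypothalamus (adjusted p = 0.0921), Cldn11 between Subventricular zone and Thalamus (adjusted p = 0.105) and Cnp between Hippocampus (posterior) and Motor cortex (adjusted p = 0.0549). Corpus callosum and Pons, almost equal in the mean of the 9, differed in 7 of the 9 genes, against 87.9% of all genes. Cldn11 was higher in Corpus callosum by 0.38 ± 0.04 on the log2 scale (SE; adjusted p = 6.96e-14), and Opalin by 0.69 ± 0.06 (adjusted p = 7.64e-20). Mbp was lower there, with a log2 difference of -0.30 ± 0.04 (adjusted p = 1.68e-10), and so was Mag, with -0.36 ± 0.04 (adjusted p = 2.99e-15). Mog, Mobp and Cnp were lower too, with differences of -0.23 to -0.13, and Ermn and Aspa did not pass; with the replicate block Aspa did, at 0.089 (adjusted p = 0.0338). Between Visual Cortex and Entorhinal cortex, Opalin alone passed, at 0.89 ± 0.15 (adjusted p = 4.48e-08). There the block turned Mbp from -0.35 (adjusted p = 0.127) to 0.49 (adjusted p = 0.0253) and Mobp from -0.10 (adjusted p = 0.661) to 0.65 (adjusted p = 0.00374), so their order in these 2 regions depended on the fit. With the block Mag, Mog, Cnp and Cldn11 passed there too, higher in Visual Cortex by 0.25 to 0.63.

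Opalin and Aspa departed most from the common pattern. Opalin stood at 0.449 reads per 100 Mbp reads in Cerebellum (median; 0.225 to 0.738 over 58 libraries), 0.479 in Pons and 0.497 in Medulla. It stood at 0.679 in Olfactory bulb, between 0.823 and 1.19 in the 10 other regions, and at 1.42 in Visual Cortex. The 3 hindbrain regions were thus low in Opalin relative to Mbp, also where both genes were abundant. From Hypothalamus to Cerebellum, neighbours in the order, Opalin was lower in Cerebellum, with a log2 difference of -1.04 ± 0.08 (adjusted p = 7.06e-23), while Mbp was higher by 0.24 ± 0.09 (adjusted p = 0.0117).

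Aspa was high in Olfactory bulb. It stood at 2.17 reads per 100 Mbp reads there (1.20 to 3.27 over 58 libraries), against medians of 0.481 to 0.940 in the 14 other regions. Its CPM in Olfactory bulb ran from 18.4 to 45.8 with a median of 31.2, the 5th highest of the 15 regions, while Mbp was 13th highest. Against Motor cortex, Aspa was higher in Olfactory bulb (log2 difference, Motor cortex minus Olfactory bulb, -0.83 ± 0.05, adjusted p = 1.58e-32) and the 8 other genes were higher in Motor cortex, by 0.38 to 1.40. Against Visual Cortex, Aspa was higher in Olfactory bulb by 1.72 ± 0.05 (adjusted p = 4.59e-65).

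**Figure D2:**
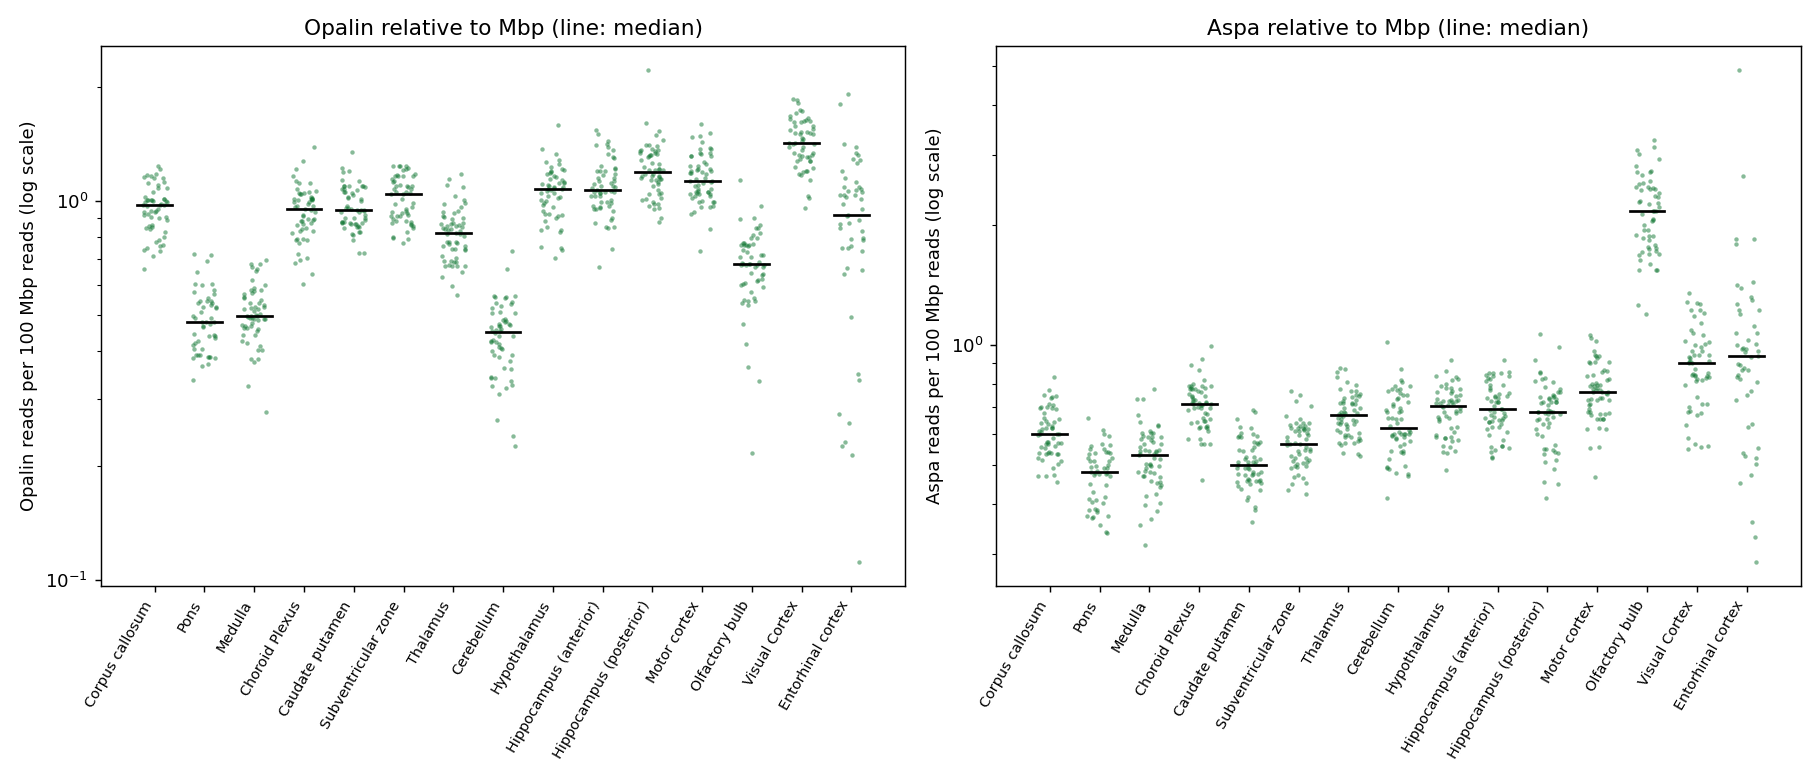
Opalin (left) and Aspa (right) as reads per 100 Mbp reads in each library, by region, on a log axis; points are libraries and bars are medians. Opalin is low in Cerebellum, Pons and Medulla, with medians of 0.449 to 0.497, and Aspa is high in Olfactory bulb, with a median of 2.17.

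Across the means of the 15 regions, the genes most like the mean of the 9 among 11949 genes were Ugt8a (Pearson r = 0.997), which makes the galactolipids of myelin, Evi2a (0.996), Mal (0.995), a lipid raft protein of myelin, Evi2 (0.995) and Trim59 (0.994). Among the 9 themselves, Mog and Mobp were the most alike pair (r = 0.999), and Opalin and Aspa the least (r = 0.783). The gene nearest to Aspa was Litaf (0.987) and the one nearest to Opalin was D7Ertd443e (0.962). These are correlations over 15 points that share mice and libraries, given as a description.

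In most regions the 9 genes varied together from mouse to mouse, and in Pons least so. In Caudate putamen the SD of a gene's log2 CPM over libraries had a median of 0.57, and that of its ratio to the 8 others was 0.11. In Corpus callosum these were 0.23 and 0.10, and in Pons 0.19 and 0.18. The mean of the 9 spanned 1.53-fold in Olfactory bulb, 1.67-fold in Pons and 5.81-fold in Choroid Plexus. It spanned 73.8-fold in Entorhinal cortex, where mouse 39 had 77.6 CPM of Mbp and mice 42, 20 and 52 had 7976, 8835 and 10998. The profile of the mouse 52 library was nearest to Pons (r = 0.902, against 0.695 with the region of its label), so the upper end of this span may not describe Entorhinal cortex. The summed neuron markers were 3268 CPM in mouse 39 and 6270, 6070 and 7141 in the other 3, and their part was not tested.

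The change with age was fitted in each region over all libraries, with sex in the model, as a log2 slope per month. Of the pairs of 1 of the 9 genes with 1 of the 15 regions, 22 rose and 5 fell at an adjusted p under 0.05 (edgeR, adjusted over all genes of the region). Over all genes and regions 6.37% of pairs rose and 5.1% fell. The median slope of the members' pairs was 0.0083 per month, against medians over all genes between -0.00056 and 0.00056 in the 15 regions. Aspa rose in 8 regions, Ermn in 5, Mbp and Mobp in 3 each, Opalin in 2 and Mag in 1. Cldn11 made up all 5 falls, and Mog and Cnp passed in no region. Of the 27 called pairs, 5 held in all 11 other settings and with each of 14 mice left out in turn: Aspa in Corpus callosum, Hippocampus (anterior), Medulla and Motor cortex, and Cldn11 in Pons.

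**Figure D3:**
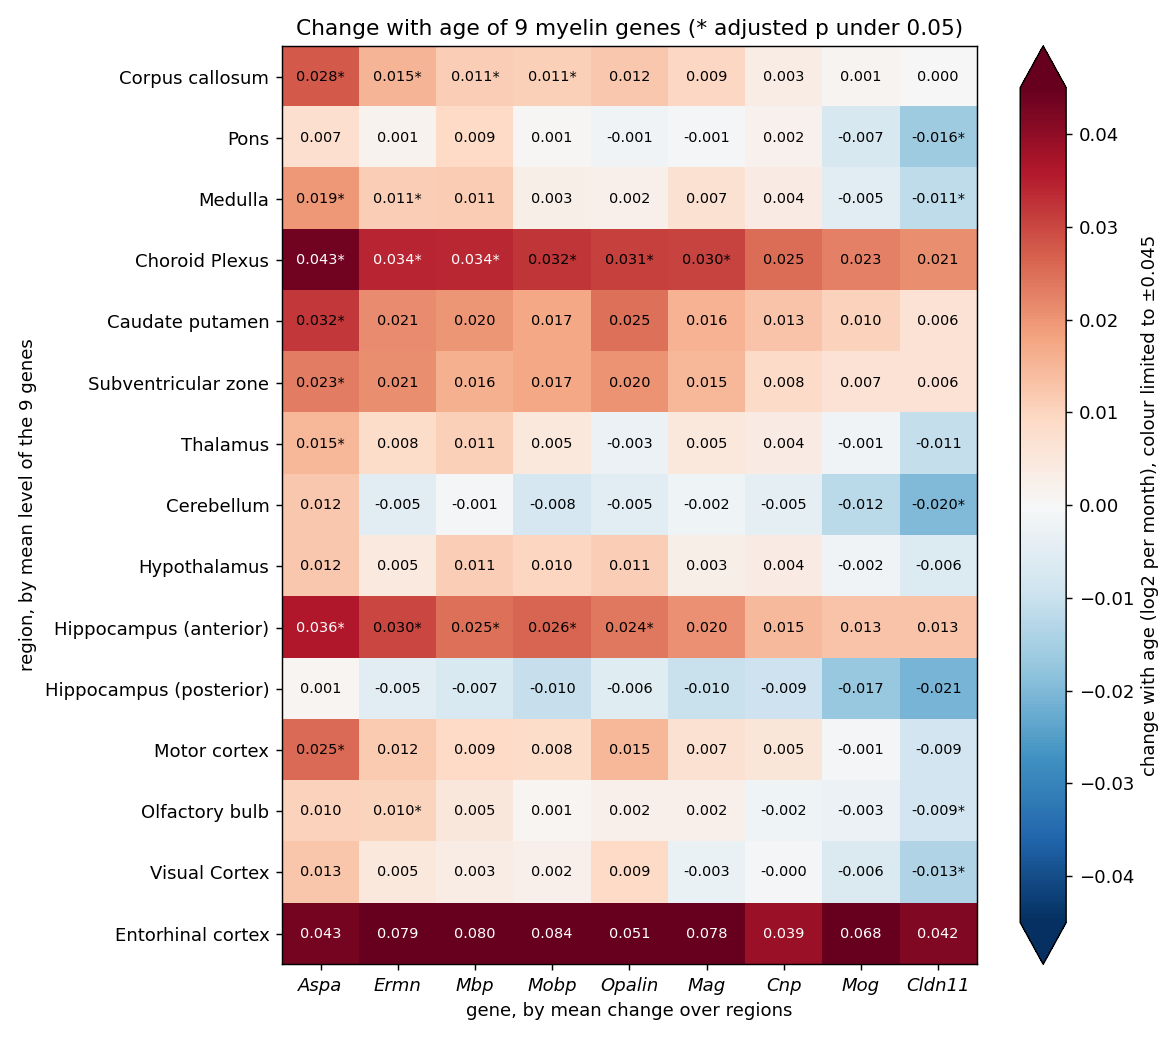
Fitted change with age of each gene (columns, by mean slope) in each region (rows, by mean level), in log2 units per month; colour runs from blue (falling) to red (rising), and an asterisk marks an adjusted p under 0.05. The Aspa column holds the largest slope in 13 of the 15 regions and the Cldn11 column the smallest in 13, while none of the 9 passed in Entorhinal cortex, where 0.227% of all genes did.

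In Corpus callosum, where 9.64% of all genes rose and 8.95% fell, 4 of the 9 rose and none fell. Aspa ran from 34.5 to 59.4 CPM at 3 months (median 48.4, n = 10), from 37.7 to 74.8 at 18 months (median 67.0, n = 10) and from 54.9 to 82.0 at 21 months (median 69.4, n = 11). The 3 mice of 28 months had 76.1, 103 and 70.7 CPM, all above every mouse of 3 months. The slope of Aspa was 0.028 ± 0.005 per month (SE; adjusted p = 6.08e-06), a fitted 1.62-fold rise over 25 months. Ermn rose by 0.015 ± 0.004 per month (adjusted p = 0.00201), with 292 ± 37.0 CPM in mice of 3 months (SD, n = 10) and 407 ± 69.0 in mice of 28 months (SD, n = 3), and the groups overlapped. Mbp rose by 0.011 ± 0.004 (adjusted p = 0.0392), from 8895 ± 994 CPM to 11473 ± 1699, and Mobp by 0.011 ± 0.004 (adjusted p = 0.0357). The calls of Mbp and Mobp were lost in males alone, at 3 to 21 months alone, in mice 16 to 56 alone, and without mouse 17 or mouse 58, and that of Ermn in mice 16 to 56 alone. The slopes of Cldn11, Mog and Cnp there were 0.00018, 0.0011 and 0.0032 and did not pass. Summed microglial markers in Corpus callosum were 398 to 488 CPM at 3 months and 618 to 846 at 28 months, with no overlap, and their part in these changes was not tested. With the mean of the neuron markers as a covariate, all 4 calls in Corpus callosum held.

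Aspa rose as well in Medulla, Motor cortex, Thalamus, Subventricular zone, Caudate putamen, Hippocampus (anterior) and Choroid Plexus, by 0.015 to 0.043 per month. The share of all genes that rose was 6.56% in Medulla, 8.39% in Motor cortex, 2.78% in Thalamus, 4.85% in Subventricular zone and 7.68% in Caudate putamen. In Medulla it had 44.4 to 58.4 CPM at 3 months (median 52.4, n = 10) and 53.1 to 77.8 at 21 months (median 65.5, n = 11), and the 3 mice of 28 months had 76.4, 72.9 and 57.5 CPM. The slope was 0.019 ± 0.003 (adjusted p = 1.88e-05), and 2 of the 3 oldest mice were above all mice of 3 months. Motor cortex held 12.8 ± 3.85 CPM in the youngest mice (SD, n = 10) and 19.2 ± 2.43 in the oldest (SD, n = 3), with a slope of 0.025 ± 0.006 (adjusted p = 0.00140). In Caudate putamen it went from 24.6 ± 10.7 (SD, n = 9) to 50.0 ± 4.37 (SD, n = 3), with all 3 oldest mice above all mice of 3 months. The 2 oldest ages stood apart there, since the medians were 23.6 to 28.8 CPM from 3 to 21 months and 48.1 and 52.0 at 26 and 28 months. The calls in Caudate putamen and Subventricular zone were lost at 3 to 21 months alone, in mice 16 to 56 alone and with the neuron markers as a covariate. That in Thalamus was lost in males alone and with depth as a covariate. Ermn rose in Medulla too, by 0.011 ± 0.004 (adjusted p = 0.0478), and in Olfactory bulb by 0.010 ± 0.004 (adjusted p = 0.0376), and each call was lost in 5 of the 11 other settings. In the 7 regions where Aspa did not pass, its slope was positive too, from 0.0010 in Hippocampus (posterior) to 0.043 in Entorhinal cortex.

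Several of the 9 also rose in Choroid Plexus and Hippocampus (anterior). In Choroid Plexus, where 11.5% of all genes rose, 6 of the 9 rose: Aspa, Ermn, Mbp, Mobp, Opalin and Mag, by 0.030 to 0.043 per month. Mbp ran from 2085 to 10671 CPM at 3 months (median 4117, n = 10) and from 5754 to 12925 at 21 months (median 7913, n = 11), and it stood at 5518, 7489 and 7628 at 28 months. The groups overlapped, and the spread within an age was wide. Of the 8 neuron markers, 4 fell in this region and none rose. With the neuron markers as a covariate, Aspa alone of the 6 kept its call, and in males alone none of the 6 did. Mag also lost it at 3 to 21 months alone, in mice 16 to 56 alone and with depth or the choroid plexus markers as covariates. Mobp lost it as well in mice 16 to 56 alone and with depth as a covariate. In Hippocampus (anterior), where 6.89% of all genes rose, 5 of the 9 rose: Aspa by 0.036 ± 0.007 per month (adjusted p = 0.000202), Ermn by 0.030 ± 0.007 (adjusted p = 0.00184), and Mobp, Mbp and Opalin by 0.024 to 0.026. Of the 6 choroid plexus markers tested there, 5 rose with age, and 1 library of 26 months, from mouse 5, was nearest to Choroid Plexus in profile, with 7013 CPM of Mbp. Without the libraries that stood apart, and with the choroid plexus markers as a covariate, Mbp, Mobp and Opalin lost the call, and Aspa and Ermn kept it. Those 3 also lost it at 3 to 21 months alone and in mice 16 to 56 alone, and in males alone Aspa was the only 1 of the 5 to keep it.

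**Figure D4:**
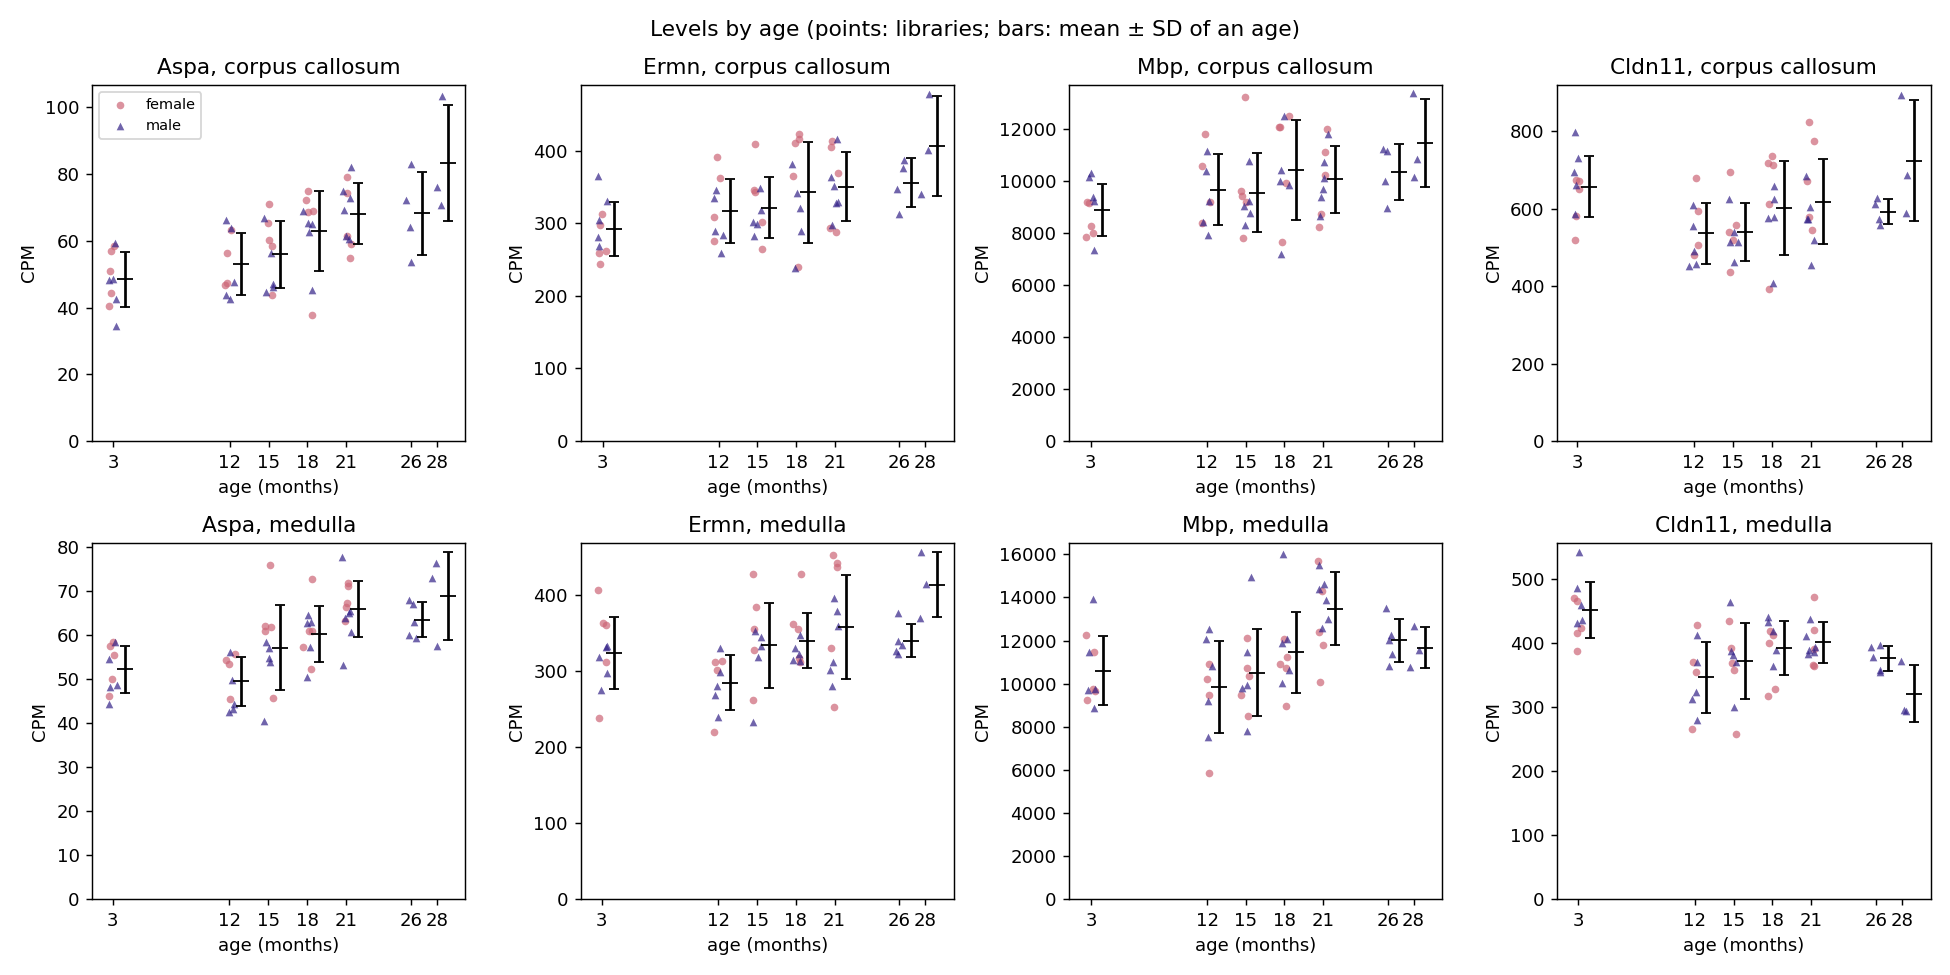
Aspa, Ermn, Mbp and Cldn11 by age in Corpus callosum (top) and Medulla (bottom), in CPM on linear axes that start at 0; circles are females, triangles are males, and the bars beside them are the mean ± SD of an age. In Corpus callosum, Aspa has a mean of 48.4 CPM at 3 months and 83.3 at 28 months; in Medulla, Cldn11 has 451 at 3 months and 321 at 28 months.

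Cldn11 fell in Pons, Cerebellum, Visual Cortex, Medulla and Olfactory bulb, against backgrounds of falling genes of 1.07%, 8.41%, 4.94%, 4.21% and 9.01%. In Pons it ran from 505 to 679 CPM at 3 months (median 550, n = 9), from 351 to 478 at 12 months (median 407, n = 6) and from 384 to 562 at 21 months (median 452, n = 11). The 3 mice of 28 months had 426 to 447 CPM, all below every mouse of 3 months. The level was thus lower at 12 months and changed little in the medians after that, which lay between 407 and 452. The slope in Pons was -0.016 ± 0.003 per month (SE; adjusted p = 0.000378). Medulla, like Pons, had no overlap between the youngest and the oldest mice: the level ran from 387 to 541 at 3 months (median 447, n = 10) and from 294 to 372 at 28 months (n = 3), and the slope was -0.011 ± 0.004 (adjusted p = 0.0448). In Cerebellum the slope was -0.020 ± 0.007 (adjusted p = 0.0232), with 206 ± 56.4 CPM in the youngest mice (SD, n = 10) and 158 ± 39.5 in the oldest (SD, n = 3), and the groups overlapped. In Olfactory bulb it was -0.0086 ± 0.003 (adjusted p = 0.0197) and in Visual Cortex -0.013 ± 0.005 (adjusted p = 0.0439). The calls in Medulla and Visual Cortex were lost with DESeq2 and without any filter. That in Medulla was also lost with RLE factors, at 3 to 21 months alone and in mice 16 to 56 alone. That in Visual Cortex was also lost in males alone and with depth, neuron or choroid plexus covariates, and that in Cerebellum in males alone and with depth covariates. Leaving out mouse 17, a male of 3 months, left 1 of the 5 falls, and leaving out mouse 37, a female of 3 months, left 2. Without mouse 39 or mouse 57, 3 falls were left. The call in Medulla was lost with 8 of the 14 mice left out in turn (17, 18, 37, 38, 39, 57, 58 and 59), and that in Visual Cortex with 7 (16, 17, 37, 39, 40, 57 and 59). Where Cldn11 did not pass, its slope was negative in Hippocampus (posterior), Hypothalamus, Motor cortex and Thalamus. It was positive, from 0.00018 to 0.042, in Corpus callosum, Caudate putamen, Subventricular zone, Hippocampus (anterior), Choroid Plexus and Entorhinal cortex.

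Against 3 months, each later age was also tested alone, and these 6 contrasts share the 3-month libraries. Of 810 tests of a gene in a region at an age, 30 were above 3 months and 24 below, against 2.29% and 1.64% of the tests over all genes. By age, the share of all genes above 3 months was 0.835% at 12 months, 0.734% at 15, 1.75% at 18, 3.98% at 21, 2.75% at 26 and 3.69% at 28. The share below was 0.927%, 0.551%, 1.11%, 3.01%, 1.57% and 2.65% at the same ages. Aspa gave 18 of the 30, and its count by age was 1 at 12 months, 0 at 15, 2 at 18, 6 at 21, 4 at 26 and 5 at 28. Ermn gave 7, Mbp 4 and Opalin 1. Cldn11 gave 19 of the 24, and its count was already 5 at 12 months, then 2 at 15, 3 at 18, 4 at 21, 3 at 26 and 2 at 28. Mog, which had no called slope, gave the other 5, of which 3 were in Medulla, with log2 differences of -0.39 ± 0.08 at 12 months, -0.30 ± 0.08 at 15 and -0.32 ± 0.12 at 28. In Pons, Cldn11 was below 3 months at all 6 later ages, by -0.46 ± 0.08 at 12 months (adjusted p = 0.00106) and by -0.40 ± 0.10 at 28 months (adjusted p = 0.0126). In Corpus callosum, Aspa was above 3 months at 18, 21, 26 and 28 months, by 0.36 ± 0.11 (adjusted p = 0.0433) at the first and 0.79 ± 0.16 (adjusted p = 0.000402) at the last. In males alone, 9 tests were above and 12 below.

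Since Aspa and Cldn11 were at the 2 ends of the slopes, their ratio within each library is given as a description, chosen after the slopes were seen and with no test. It cancels shifts that both genes share. In Corpus callosum there were 7.38 ± 1.02 Aspa reads per 100 Cldn11 reads at 3 months (SD, n = 10) and 11.5 ± 0.470 at 28 months (SD, n = 3). In Medulla there were 11.6 ± 1.51 (n = 10) and 21.7 ± 3.71 (n = 3), and in Thalamus 9.14 ± 1.38 (n = 10) and 16.0 ± 0.952 (n = 3). The ratio of the means between 28 and 3 months was above 1 in 14 of 15 regions, with 1.86 in Medulla as the highest. Entorhinal cortex was the exception, at 12.4 ± 2.22 (n = 9) and 11.4 ± 3.60 (n = 3). All 28-month libraries were above all 3-month libraries in 9 regions.

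**Figure D5:**
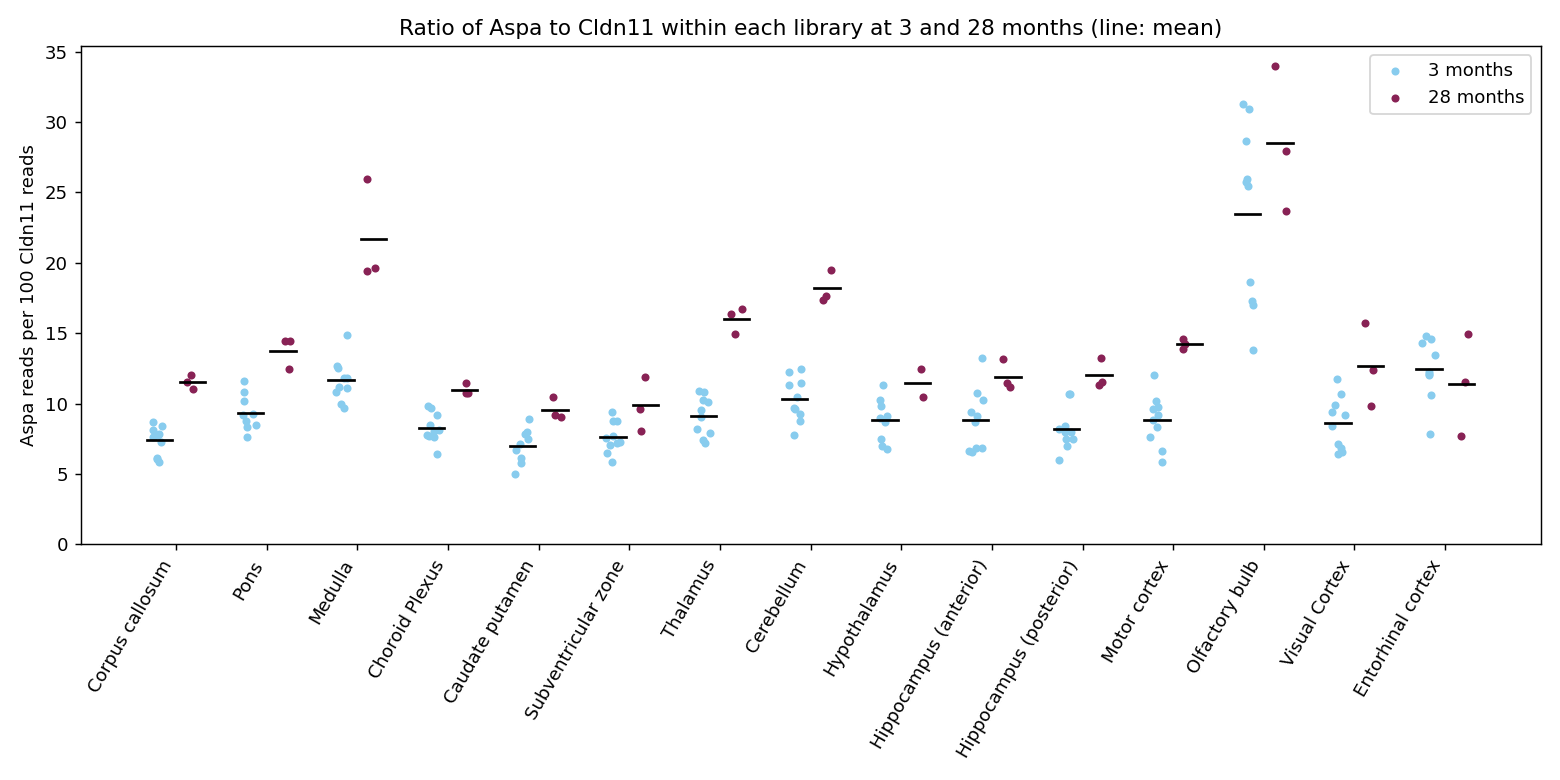
Aspa reads per 100 Cldn11 reads in each library of 3 months (light blue) and 28 months (purple), by region on a linear axis; lines are means. The 28-month libraries lie above all 3-month libraries in 9 of 15 regions, among them Corpus callosum, Pons, Medulla, Thalamus and Cerebellum, and overlap them in Entorhinal cortex.

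Between males and females at 3 to 21 months, 5 pairs of a gene and a region were lower in males and 0 higher, against 1.63% and 1.38% of pairs over all genes (edgeR). By DESeq2, 6 pairs were called. At an unadjusted p under 0.05, 19 pairs were lower and 2 higher in males (edgeR). The share of all genes at that threshold is not given. The genes varied together from mouse to mouse in most regions, so pairs of the same region are not independent counts. All 5 calls were in Hippocampus (posterior), where 1.8% of all genes were lower in males. In that region 9 libraries stood apart, 7 of them male. The library of mouse 14, a male of 26 months, is among these and was outside this test. There Mag had a log2 difference, male minus female, of -0.46 ± 0.11 (SE; adjusted p = 0.0178), Mobp -0.47 ± 0.13 (adjusted p = 0.0294), Mog -0.41 ± 0.11 (adjusted p = 0.0294), Mbp -0.38 ± 0.11 (adjusted p = 0.0405) and Cnp -0.29 ± 0.09 (adjusted p = 0.0410). Without the libraries that stood apart, none of the pairs passed: Mag had -0.39 ± 0.10 (adjusted p = 0.0660) and Mobp -0.41 ± 0.13 (adjusted p = 0.136). In mice 16 to 56 alone none passed either, with -0.39 for Mag (adjusted p = 0.115). Leaving out mouse 1, 16, 19, 38 or 40 left 3 of the calls, and leaving out mouse 37 gave 8. The change with age did not pass for a difference between the sexes in any pair, by edgeR or by DESeq2. Over all genes 0.0694% of pairs were called. By each tool 3 pairs had an unadjusted p under 0.05, and the share of all genes at that threshold is not given.

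The series title names white matter tracts, so the slope in Corpus callosum was set against that of each of the 14 other regions. Of 126 tests of a gene, 1 had a higher slope in Corpus callosum, against 1.48% over all genes: Aspa against Pons (0.681% of all genes in that test), by 0.021 ± 0.006 per month (adjusted p = 0.0380). None had a lower slope by edgeR or DESeq2, against 0.832% over all genes. At an unadjusted p under 0.05, 7 tests were in that direction in each, and 19 (edgeR) and 15 (DESeq2) were in the other. The share of all genes at that threshold is not given. The same animals gave both regions, and with mouse as a replicate block 3 tests passed. The call was absent with RLE factors, with no filter, with DESeq2, in males alone, in mice 16 to 56 alone, without the libraries that stood apart (0.019, adjusted p = 0.112), and without mouse 17, 57, 58 or 59. Without mouse 19 or mouse 37, 2 tests passed, and without mouse 59, 7 others did. Without the libraries that stood apart 4 tests passed, all against Hippocampus (posterior), for Aspa, Cldn11, Ermn and Mag. The 2 added with the block were Aspa against Olfactory bulb and Visual Cortex. Against Olfactory bulb the difference without the block for Aspa was 0.018 ± 0.006 (adjusted p = 0.0526), and against Caudate putamen, where Aspa also rose, it was -0.0089 ± 0.0102 (adjusted p = 0.945).

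Other genes of the myelin pathway were followed as lists, counted over the 15 regions beside the 6.37% rising and 5.1% falling over all genes. Of 300 pairs from 20 other myelin and paranodal proteins, 54 rose and 12 fell, with a median slope of 0.0052. Hapln2, a link protein of the node of Ranvier, rose in 10 regions, Trf, the iron carrier transferrin, in 8, and Gjb1, a connexin of myelin, in 7. Of 105 pairs from 7 genes of myelin lipid synthesis, 8 rose and 3 fell. The 9 oligodendrocyte transcription factors gave 28 rises and 6 falls over the 15 regions, and Nkx6-2 rose in 9 regions, Myrf in 7 and Sox10 in 6. They did not all move alike: in Corpus callosum Nkx6-2, Myrf, Sox10, Nkx2-2 and Zfp536 rose. Zfp488 fell there, by -0.019 ± 0.006 per month (SE; edgeR, adjusted p = 0.0196), and Olig1, Olig2 and Sox8 did not pass. Of 104 pairs from 7 genes of late oligodendrocytes, 42 rose and 1 fell: Apod rose in 12 regions, Il33 in 11 and Klk6 in 6 of the 14 where it was tested. Of 120 pairs from 8 genes of newly formed oligodendrocytes, 13 rose and 33 fell, with Gpr17, a receptor of that stage, falling in 15 of 15 regions, Neu4 falling in 7 and Bcas1 rising in 8. Of 90 pairs from 6 genes of oligodendrocyte precursors, 1 rose and 5 fell.

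Lists of other cell types were counted in the same way. Of 105 microglial pairs 70 rose and 2 fell, of 105 astrocytic pairs 22 rose and 8 fell, and of 120 neuronal pairs 4 rose and 20 fell. Of 90 endothelial pairs, 6 rose and 1 fell. Of 84 choroid plexus pairs, 7 rose and 3 fell, and of 45 blood pairs, 9 rose and 0 fell. Of 32 Schwann cell pairs, 12 rose and 0 fell, and 11 of the 12 were Pmp22, which oligodendrocytes and other cells express too. Of 102 pairs from 7 genes of the response to myelin inhibitors, which are receptors and their partners and Rtn4, the gene of the inhibitor Nogo itself, 8 rose and 5 fell.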

How the data were processed

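Per the labels' protocols, RNA was purified from homogenized tissue with RNeasy kits, cDNA was made by Smart-Seq2, and libraries were made with Nextera XT and do not mark strand. The submitters' processing notes name Trim Galore 0.3.7, STAR 2.5.3a, DESeq2 and GRCm38, with no role or order. The counting program and the annotation are not given in the sources used here. The deposited values are raw read counts per gene, as the authors made them, and were used unchanged.

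Counts were scaled with TMM factors, genes with low counts were removed by filterByExpr, and edgeR 4.0.16 (R 4.3.3) fitted its quasi-likelihood test over all genes of a region, with Benjamini-Hochberg adjustment and a threshold of 0.05. The age fits held sex as a covariate. Printed levels are CPM without TMM factors, and log2 CPM used a prior count of 2. Replicates are separate mice. Alternatives were RLE factors, no filter, DESeq2 1.42.0, subsets of mice, covariates, and leaving out 14 mice in turn (10 for the sexes). The mouse number pairs the regions, per the labels. Same-numbered libraries had median correlations of deviations from -0.04 to 0.20 over 2000 genes. The age slope and age by sex fits in Corpus callosum were tested on simulated data. So was the age by region fit of Corpus callosum with Motor cortex. The other fits were not tested in this way. The genes named are the 9 members, those most like them across regions, and 14 lists of related genes and cell types. Members and lists were chosen with earlier results of these data known. Exon lengths, overlaps and the annotated 5′ end of Aspa come from GENCODE M21.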

Additional observations from a re-analysis of the deposited data

Results flagged for a closer look

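The mean log2 CPM of the 9 genes was compared within each of 77 groups of 4 to 10 libraries of a region and age, and 5 held a library far from the others; chance alone flags about 1 in 20 groups. In Entorhinal cortex at 18 months, mouse 39 stood at 2.89, below the others at 5.28 to 6.64. In Pons at 15 months, mouse 26 stood at 8.68, below 8.99 to 9.27. In Thalamus at 12 months, mouse 3 stood at 8.62, above 7.92 to 8.22. In Visual Cortex at 12 months the same mouse stood at 5.23, below 5.77 to 6.17. In Visual Cortex at 26 months, mouse 8 stood at 5.40, below 6.16 to 6.23.

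The age slope of Aspa differed between Corpus callosum and Pons by 0.021 per month in a test of the difference itself. The slopes were 0.028 in Corpus callosum and 0.0074 in Pons. Of 126 such tests this was the 1 call, against 1.48% over all genes with a higher slope in Corpus callosum. The call was absent with RLE factors, with no filter, with DESeq2, in males alone, without the libraries that stood apart, and in other settings named above.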

How the results depend on the processing

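The 22 rises with age became 10 in males alone, 14 at 3 to 21 months alone and 12 in mice 16 to 56 alone. The 5 falls became 3 with no filter, with DESeq2, in males alone and with depth covariates. In males alone, the 30 tests above 3 months became 9 and the 24 below became 12. The 5 pairs lower in males became 0 in mice 16 to 56 alone and without the libraries that stood apart. The 1 higher slope in Corpus callosum became 0 with RLE factors, no filter, DESeq2, males alone and mice 16 to 56 alone, 3 with the replicate block and 4 without the libraries that stood apart. The subsets hold fewer libraries; otherwise the cause was not tested. With 1 mouse left out in turn, rises ranged from 19 to 25, falls from 1 to 5, tests above 3 months from 23 to 37 and below from 20 to 24. Pairs lower in males ranged from 3 to 8, higher from 0 to 0, and higher slopes in Corpus callosum from 0 to 7, lower from 0 to 0. With the replicate block, Visual Cortex minus Entorhinal cortex turned to 0.49 for Mbp and 0.65 for Mobp. Leaving out the libraries that stood apart and the choroid plexus covariate were chosen after seeing the data. There were 3 mice at 28 months, and the 2 oldest ages held males only.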
